A study of Homo sapiens with 4 samples.

Results

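Transcripts of the inter-alpha-trypsin inhibitor family were followed in the hepatocellular carcinoma line Huh-7, a human liver cancer line that keeps many hepatocyte products, after treatment with transforming growth factor beta (TGF-beta). The family was taken as every probe set that the platform's annotation names ITIH1, ITIH2, ITIH3, ITIH4 or AMBP, which gave 7 probe sets of 22215 and 5 genes of 12165 measured. ITIH4 and AMBP have 2 probe sets each, and the other 3 genes have 1 each. RNA was measured on 4 Affymetrix arrays, 2 of Huh-7 cells taken at 48 h of TGF-beta treatment and 2 of Huh-7 cells without it (untreated). Both groups are the same line, grown in serum-containing medium, and no label used here states the dose or isoform of TGF-beta. The labels used here also give no time for the untreated cells, so whether the groups are matched in time is not known. Whether the 2 arrays of a group come from separate cultures is not stated either, so the p-values reflect the spread between these arrays alone, and that spread may be technical. Levels are linear probe set intensities, and differences are log2 ratios of TGF-beta over untreated.

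Inter-alpha-trypsin inhibitors are plasma proteins made mainly by the hepatocyte. Their light chain, bikunin, is a protease inhibitor with Kunitz domains that carries a chondroitin sulfate chain, and heavy chains are bound to that chain by an ester link. AMBP encodes a precursor that is cleaved into alpha-1-microglobulin, a heme-binding lipocalin, and bikunin. ITIH1, ITIH2 and ITIH3 encode the heavy chains, which the enzyme-like protein TSG-6 moves to hyaluronan in the extracellular matrix. ITIH4 encodes a related protein that is not joined to bikunin, is cut by plasma kallikrein and belongs to the acute phase proteins in humans.

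In the RefSeq gene order, ITIH1, ITIH3 and ITIH4 follow one another on chromosome 3, ITIH2 lies beside its relative ITIH5 on chromosome 10, and AMBP lies on chromosome 9. The RefSeq table of start site windows (GRCh38.p14) held 4 of the 5 genes, and ITIH2 was the gene with no window there. The 250 bases before the start are shown for AMBP, the member with the brightest probe set, and for ITIH3 and ITIH4, neighbours whose probe sets were dim on the same arrays. They run 5′ to 3′ on the gene's strand, and capitals mark matches to 6 short motifs searched on both strands.
AMBP: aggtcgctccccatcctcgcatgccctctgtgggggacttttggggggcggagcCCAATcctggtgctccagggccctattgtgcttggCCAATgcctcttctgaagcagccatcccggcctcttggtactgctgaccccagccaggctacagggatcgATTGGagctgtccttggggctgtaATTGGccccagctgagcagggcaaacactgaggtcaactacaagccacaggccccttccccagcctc
ITIH3: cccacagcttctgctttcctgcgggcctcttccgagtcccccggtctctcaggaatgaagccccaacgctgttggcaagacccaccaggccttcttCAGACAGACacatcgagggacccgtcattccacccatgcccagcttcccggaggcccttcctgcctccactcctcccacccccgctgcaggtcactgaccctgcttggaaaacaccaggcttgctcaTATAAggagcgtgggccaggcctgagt
ITIH4: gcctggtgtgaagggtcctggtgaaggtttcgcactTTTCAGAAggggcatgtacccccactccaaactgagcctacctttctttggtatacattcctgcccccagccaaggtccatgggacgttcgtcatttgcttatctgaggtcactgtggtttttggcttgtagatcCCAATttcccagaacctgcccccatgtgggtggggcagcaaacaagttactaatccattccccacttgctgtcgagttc
These windows are chr9:114078301-114078550 on the minus strand for AMBP, chr3:52794546-52794795 on the plus strand for ITIH3 and chr3:52830673-52830922 on the minus strand for ITIH4. ITIH1 has 3 annotated starts and is not shown.

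The CCAAT box was searched as CCAAT, the TATA-like element as TATAA, the SMAD element as CAGAC, the HNF4 core as CAAAGT, the HNF6 core as ATTGAT and the C/EBP element as TTNNGNAA. The AMBP window held 4 CCAAT matches and none of the other motifs. At least 4 CCAAT matches were found in 0.874% of all 35116 windows, and at least 1 in 32.0%. The ITIH3 window held 1 TATAA match, at 27 to 23 bases before the start, and 2 CAGAC matches that share a base. TATAA was found in 18.9% of all windows and CAGAC in 38.0%. The ITIH4 window held 1 CCAAT match and 1 TTNNGNAA match, which 33.2% of windows held. No match in these windows overlapped a match of another motif. A match is a description of the letters only.

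The arrays had near-equal brightness, with median intensities of 51.0 and 50.7 after TGF-beta and 50.3 and 50.1 in untreated cells. Of 15 hepatocyte markers 14 were measured, and 12 of them had mean intensities above 100, among them ALB (albumin) at 35746 and 35526 after TGF-beta, against 33581 and 34263 in untreated cells. TAT and CYP2E1, both enzymes of the mature hepatocyte, lay near or below the lower quartile of the arrays. The summed level of the hepatocyte markers was 111173 and 110332 after TGF-beta, against 103810 and 106916 in untreated cells. ALB and AFP (alpha-fetoprotein) were the brightest of them, with AFP at 25420 and 24706 after TGF-beta, against 23914 and 24139 in untreated cells. Of the 14, 2 were called in limma, with log2 fold changes of 0.74 for APOA1 and -0.63 for TTR, where 1.22% of all genes were called. Of 10 fibroblast markers 9 were below 100, the other being LUM, and of 8 leukocyte markers measured 6 were below 100. All 10 endothelial markers were below 100. Their summed levels were 7106 and 7613 (fibroblast), 465 and 496 (leukocyte) and 316 and 315 (endothelial) after TGF-beta, against 7580 and 7043, 529 and 449, and 323 and 322 in untreated cells. LUM made up most of the fibroblast sum, and the other 9 summed to 328 and 321 after TGF-beta, against 396 and 351 in untreated cells. Of these 9, 8 had negative log2 fold changes and none was called, with DCN at -0.53 (adjusted p = 0.128) and COL1A1 at -0.44 (adjusted p = 0.0982) in limma. Without adjustment, 2 of the 10 fibroblast markers passed at p under 0.05 in limma, where 18% of all genes did. With the mean of all probe sets of a gene, 0 of the 10 passed. The part of these markers in the results was not tested.

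None of the 5 family genes passed the test for a change after TGF-beta. In limma's fit over all genes with Benjamini-Hochberg adjustment, 0 of 5 reached an adjusted p under 0.05, and 0 of 5 reached an unadjusted p under 0.05, where 1.22% and 18% of all 12165 genes did. At the level of probe sets, 0 of 7 were called, against 0.887% of the 19724 probe sets that name 1 gene. The family's log2 fold changes lay between -0.08 and 0.27. The smallest absolute log2 fold change of any called gene was 0.60, and all 7 probe sets had 95% intervals that ended short of it. The value of 0.60 comes from these same data and was not set beforehand. In bulk samples such as these, a difference in the share of cells that make a transcript cannot be told apart from a difference in its level per cell.

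**Figure D1:**
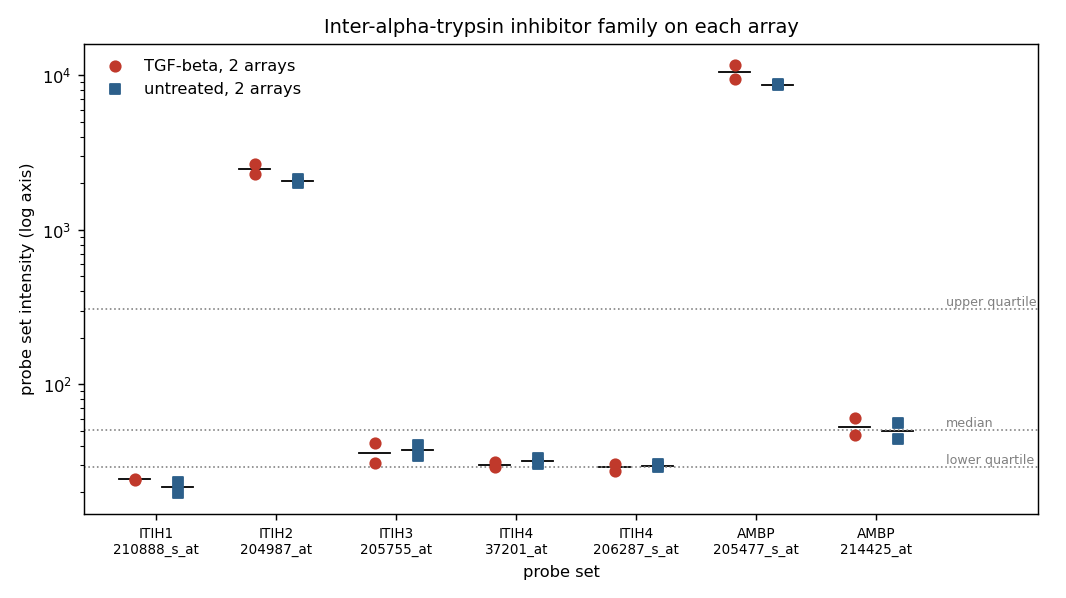
Intensity (log axis) of the 7 family probe sets on each array, TGF-beta arrays as red circles left of untreated arrays as blue squares, with each group's geometric mean as a short line and the array quartiles dotted. The probe sets of ITIH2 and the brighter one of AMBP lie above the upper quartile on all 4 arrays, and the other 5 lie near or below the median.

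AMBP, which encodes bikunin and alpha-1-microglobulin, had intensities of 11605 and 9482 on the TGF-beta arrays, against 8705 and 8736 on the untreated arrays, with probe set 205477_s_at. Both TGF-beta arrays were above both untreated arrays, which lay close together, while the TGF-beta arrays differed from each other by 0.29 on the log2 scale. The log2 intensity averaged 13.36 ± 0.21 after TGF-beta and 13.09 ± 0.004 in untreated cells (SD, n = 2 each). Its log2 fold change was 0.27 ± 0.13 (SE), with an interval of -0.03 to 0.57 and an adjusted p of 0.329. This probe set stood at percentile 99.0 and 98.6 of all probe sets on the TGF-beta arrays, against 98.5 on each untreated array.

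The other AMBP probe set, 214425_at, was dim, with intensities of 60.1 and 46.7 after TGF-beta, against 55.8 and 44.3 in untreated cells. The groups overlapped, and replicate 1 was the brighter array in each. Its log2 fold change was 0.09 ± 0.16 (SE, adjusted p = 0.846 in the fit over probe sets). Both AMBP probe sets thus had positive values, and neither passed the test.

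ITIH2, the heavy chain that is paired with ITIH1 in inter-alpha-inhibitor, had intensities of 2305 and 2657 after TGF-beta, against 2014 and 2126 in untreated cells. All 4 arrays placed it well above the upper quartile, at percentiles of 93.7 and 94.4 after TGF-beta and 92.7 and 93.1 in untreated cells, and the groups did not overlap. The log2 intensity averaged 11.27 ± 0.15 after TGF-beta and 11.02 ± 0.06 in untreated cells (SD, n = 2 each). Its log2 fold change was 0.26 ± 0.12 (SE), with an interval of -0.02 to 0.53 and an adjusted p of 0.306.

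AMBP and ITIH2 had similar differences between the groups, but the TGF-beta arrays ranked them in opposite order. AMBP was brighter on TGF-beta replicate 1 and ITIH2 on TGF-beta replicate 2. The log2 ratio of AMBP to ITIH2, centred over the arrays, was 0.25 and -0.24 on the TGF-beta arrays, against 0.03 and -0.04 on the untreated arrays. The ratio after TGF-beta thus lay on both sides of that in untreated cells. Without TGF-beta replicate 1 the log2 fold change was 0.12 for AMBP and 0.36 for ITIH2, and without TGF-beta replicate 2 it was 0.41 for AMBP and 0.16 for ITIH2, with no call in any of these fits.

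ITIH1, the other heavy chain of inter-alpha-inhibitor, had intensities of 24.0 and 24.5 after TGF-beta, against 23.3 and 19.7 in untreated cells. These values are below the lower quartile of every array, which lay between 28.8 and 29.2. The groups did not overlap, by a margin smaller than the gap between the untreated arrays. Its log2 fold change was 0.18 ± 0.12 (SE, interval -0.10 to 0.46, adjusted p = 0.504). Without untreated replicate 1 the value was 0.30 and without untreated replicate 2 it was 0.06.

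ITIH3, the heavy chain of pre-alpha-inhibitor, had intensities of 30.7 and 41.7 after TGF-beta, against 40.5 and 34.4 in untreated cells. The groups overlapped, and the TGF-beta arrays held both the lowest and the highest value. Its log2 fold change was -0.06 ± 0.17 (SE, interval -0.45 to 0.33, adjusted p = 0.897). The sign depended on single arrays, with 0.06 without untreated replicate 1 and 0.16 without TGF-beta replicate 1.

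ITIH4, the acute phase member, had intensities of 31.2 and 29.2 after TGF-beta, against 33.2 and 30.6 in untreated cells, with probe set 37201_at. Probe set 206287_s_at gave 30.6 and 27.4 after TGF-beta, against 29.1 and 30.3 in untreated cells. Both lay near the lower quartile and both overlapped between the groups. The log2 fold changes were -0.08 ± 0.11 and -0.04 ± 0.11 (SE), and the adjusted p for the gene was 0.781. Leaving out 1 array at a time gave 37201_at values of -0.14 (without untreated replicate 2) to -0.02 (without untreated replicate 1), with no call. ITIH5, a related gene outside the group chosen here, was as dim, with a mean of 28.4 after TGF-beta and 27.6 in untreated cells (log2 fold change 0.04, adjusted p = 0.880). ITIH6 was not analysed here.

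**Figure D2:**
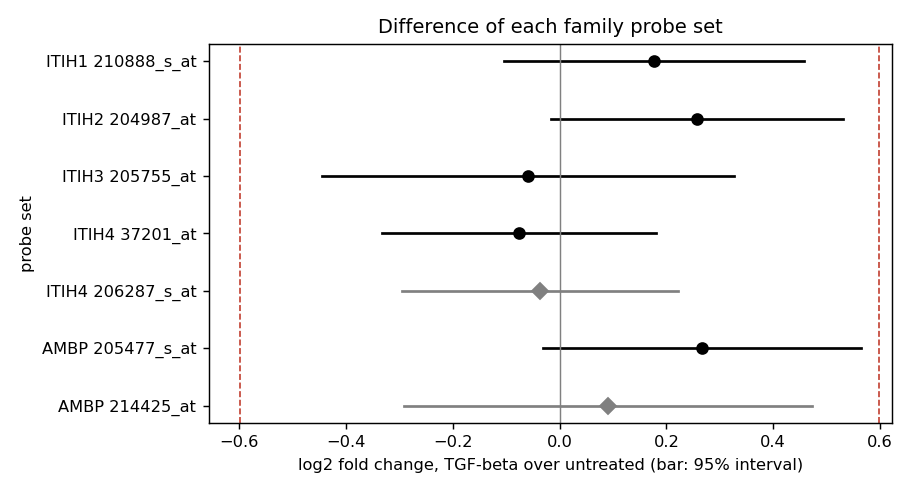
Log2 fold change of TGF-beta over untreated for each family probe set from the fit over probe sets, with 95% intervals; black circles are the probe sets that represent the genes, grey diamonds the others, and red dashed lines the smallest absolute value of a called gene (0.60). The intervals of all 7 probe sets include 0.

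In 3 of the 5 genes (AMBP, ITIH2 and ITIH1) both TGF-beta arrays were above both untreated arrays, and in the other two the arrays overlapped. Over all genes the arrays did not overlap in 49.1%, and the TGF-beta arrays were the higher ones in 23.3%. The median log2 fold change was 0.18 over the family and -0.01 over all genes. With 5 genes, of which 3 sit at the dim end of the arrays, these counts describe the family only.

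The level of a probe set depends on its probes, so intensities of different family members do not give their relative transcript amounts. Among the 1003 genes at least as bright as ITIH2 there were 6 calls (0.598%), and the median absolute log2 fold change was 0.11. Of these 1003 genes, 147 had an absolute value at least as large as that of AMBP. Among the 5250 genes below the median probe set intensity, where ITIH1, ITIH3 and ITIH4 lay, there were 8 calls (0.152%). On simulated data of this size the procedure recovered 0.2% of simulated log2 changes of 0.25, 7.1% of changes of 0.5 and 89.2% of changes of 1. In that simulation, a change near the size seen for AMBP or ITIH2 was thus seldom called with 2 arrays per group. The simulation changed 200 of 12165 genes, whereas 2184 genes had an unadjusted p under 0.05 in the limma fit. Recovery in the data may therefore differ.

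**Figure D3:**
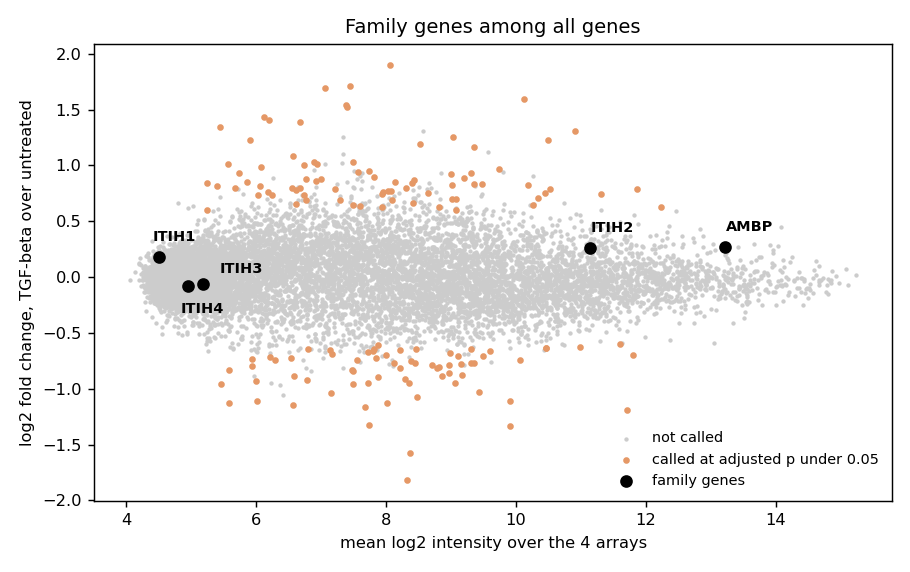
Log2 fold change of TGF-beta over untreated against mean log2 intensity for 12165 genes, called genes in orange and the 5 family genes in black. AMBP and ITIH2 lie among bright genes at 0.27 and 0.26, and ITIH1, ITIH3 and ITIH4 lie at the dim end within the cloud of genes that were not called.

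Genes that meet the family in its biology were taken as lists, and their calls stand against the 1.22% of all genes called. In hyaluronan matrix partners, 2 genes of the 22 measured rose and none fell, and the median log2 fold change was -0.02. Without adjustment, 2 had higher and 2 lower values at p under 0.05 in limma, where 18% of all genes passed. Of the 22, 18 had mean intensities below 100. HABP2, a hyaluronan-binding plasma protease, had intensities of 526 and 508 after TGF-beta, against 113 and 169 in untreated cells (log2 fold change 1.90 ± 0.18, SE, adjusted p = 0.0114). HYAL2, a membrane-anchored hyaluronidase, had 115 and 130 after TGF-beta, against 78.4 and 77.3 in untreated cells (log2 fold change 0.65 ± 0.11, SE, adjusted p = 0.0485). The hyaluronan receptor CD44 was dim, at 29.5 and 35.1 after TGF-beta, against 55.5 and 39.9 in untreated cells. Its log2 fold change was -0.55 with an adjusted p of 0.159. TNFAIP6, which encodes TSG-6, was dim, at 28.5 and 32.3 after TGF-beta, against 32.2 and 31.7 in untreated cells, with a log2 fold change of -0.08 (adjusted p = 0.793). PTX3, which binds heavy chains in hyaluronan matrix, had a value of -0.01, and the hyaluronan synthase HAS2 had -0.30 (adjusted p = 0.282). PTX3 and HAS2 were dim as well.

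The enzymes and transporters that build chondroitin sulfate, the chain on which the complex is assembled, had 0 calls among 22 measured members in limma and a median of 0.09. At an unadjusted p under 0.05 there were 3 with higher and 2 with lower values, where 18% of all genes passed that threshold. PAPSS2, which makes the sulfate donor, had intensities of 1012 and 1123 after TGF-beta, against 1454 and 1506 in untreated cells (log2 fold change -0.47, adjusted p = 0.0812). DSE, the dermatan sulfate epimerase, was dim, at 30.7 and 29.2 after TGF-beta, against 38.6 and 42.4 in untreated cells (log2 fold change -0.44, adjusted p = 0.0984). FAM20B, the xylose kinase of the linkage region, had 205 and 199 after TGF-beta, against 75.0 and 171 in untreated cells. Its log2 fold change of 0.84 ± 0.33 (SE, adjusted p = 0.241) came with untreated arrays that lay farther apart than the nearest arrays of the groups. XYLT1 and XYLT2, the xylosyltransferases that start the chain, were both dim and had values of -0.19 and 0.13.

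Among proteases and secretory convertases, HABP2 was the 1 call of 18 measured members, with a list median of 0.0004. Without adjustment, 3 had higher and 1 a lower value at p under 0.05 in limma, against 18% of all genes. FURIN, a convertase of the secretory pathway, had intensities of 137 and 145 after TGF-beta, against 99.9 and 108 in untreated cells (log2 fold change 0.44 ± 0.11, SE, adjusted p = 0.0941). PLAU, the urokinase that activates plasminogen, had a value of 0.41 (adjusted p = 0.153), and KLKB1, plasma kallikrein, one of 0.20 (adjusted p = 0.457). PLAU and KLKB1 were both dim. Lipocalins, the relatives of alpha-1-microglobulin, had 0 calls among 10 measured members in limma and a median of -0.08. At an unadjusted p under 0.05 there were 1 with a higher and 2 with lower values, against the same 18% of all genes. ORM1 (orosomucoid), which is the next measured gene beside AMBP on chromosome 9, had 2674 and 2461 after TGF-beta, against 3423 and 3477 in untreated cells (log2 fold change -0.43, adjusted p = 0.0976). LCN2, the neutrophil lipocalin, and APOM, a carrier of sphingosine phosphate on lipoproteins, stood at -0.32 (adjusted p = 0.183) and 0.34 (adjusted p = 0.254). LCN2 was dim, at 29.3 and 30.7 after TGF-beta, against 36.2 and 38.7 in untreated cells.

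**Figure D4:**
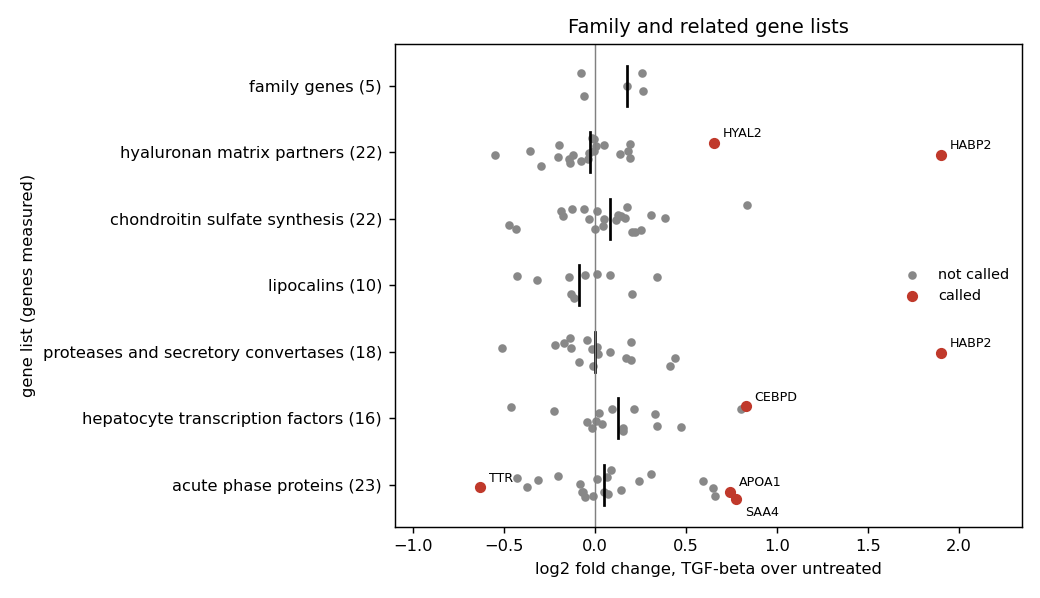
Log2 fold change of TGF-beta over untreated for each measured gene of the family and of 6 related lists, with called genes named in red and each list's median as a black bar. No family gene is called, and HABP2 at 1.90 lies farthest from 0.

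Hepatocyte transcription factors had 1 call among 16 measured members and a median of 0.13. Without adjustment, 4 had higher and 1 a lower value at p under 0.05 in limma, against 18% of all genes. CEBPD, a C/EBP factor of the acute phase response, had intensities of 741 and 639 after TGF-beta, against 365 and 411 in untreated cells (log2 fold change 0.83 ± 0.12, SE, adjusted p = 0.0371). With the mean of all its probe sets the value was 0.39 and the call was lost. RXRA, the partner of many nuclear receptors, had a value of 0.81 (adjusted p = 0.0558), and CEBPG, another C/EBP protein, one of -0.46 (adjusted p = 0.0975). HNF4A was not analysed here. Acute phase proteins, 23 of which were measured, had 3 calls, 2 higher and 1 lower, and a median of 0.05. The list's members include proteins that rise and proteins that fall in the acute phase, and the list was not split by that direction. The calls therefore give no reading of an acute phase response. Without adjustment, 6 had higher and 4 lower values at p under 0.05 in limma, against 18% of all genes. SAA4 (a serum amyloid A protein) had a log2 fold change of 0.77 and APOA1 (the apolipoprotein that shapes high-density lipoprotein) one of 0.74, and TTR (transthyretin) fell by 0.63. The 7 calls across all these lists and the genomic neighbours of the family were lost when either TGF-beta array was left out. Under quantile normalization the calls of HABP2 and PFKFB3 (described with the neighbours) were kept and the other 5 were lost, and with an offset of 50 all 7 were lost. The call of HYAL2 was also lost with an offset of 16 and without dim probe sets (adjusted p = 0.0503 and 0.0554 in limma), and that of TTR without dim probe sets and without untreated replicate 1 (adjusted p = 0.0537 and 0.0528).

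The genes with a pattern most like that of AMBP, the member with the largest absolute difference, were taken by the Euclidean distance between log2 intensities centred on each gene's mean over the 4 arrays. The nearest 5 were NRTN, MAPK7, PYY2, SCAMP4 and BCORL1, at distances of 0.03 to 0.05. All were far dimmer than AMBP, and NRTN, MAPK7, PYY2 and SCAMP4 lay below the median of every array. NRTN had intensities of 28.8 and 23.7 after TGF-beta, against 21.7 and 22.3 in untreated cells. BCORL1, the brightest of them, had 85.4 and 67.0, against 63.6 and 64.1. Each of the 5 was also brightest on TGF-beta replicate 1, and none was called. Their choice by closeness to AMBP largely fixed both. The other family genes were farther from AMBP, at 0.30 for ITIH1, 0.36 for ITIH2, 0.38 for ITIH4 and 0.63 for ITIH3. All these distances rest on 4 arrays and describe the arrays only.

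**Figure D5:**
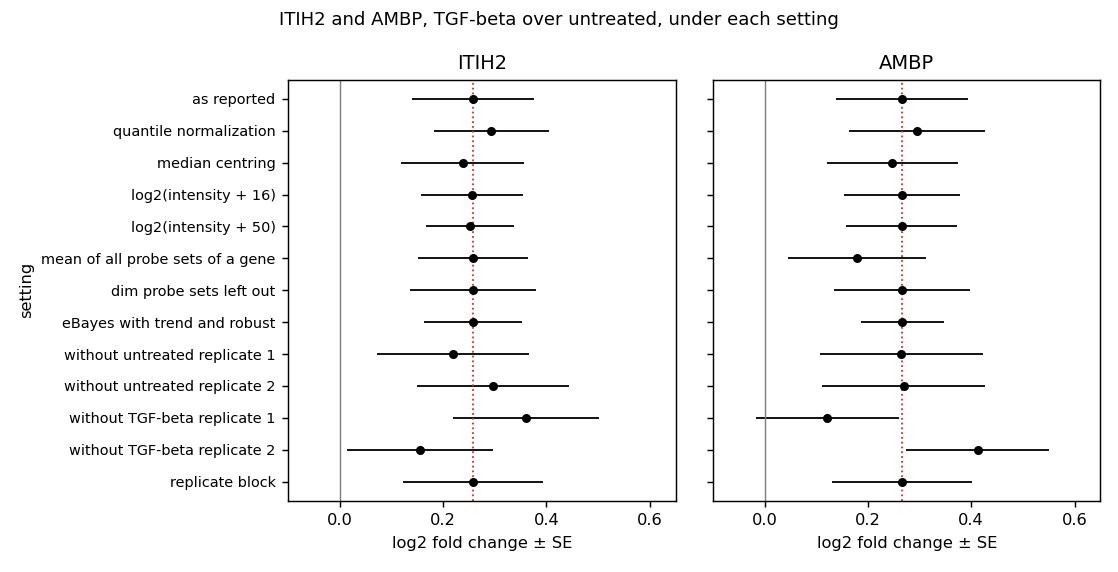
Log2 fold change of TGF-beta over untreated ± SE for ITIH2 and AMBP as reported (red dotted line) and under 12 alternative settings. Values stay between 0.16 and 0.36 for ITIH2 and between 0.12 and 0.41 for AMBP, and the ends of both ranges come from leaving out a TGF-beta array.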

How the data were processed

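The authors deposited 1 linear intensity for each probe set on each array. Per the submitters' processing notes the affy package was used; its settings are not stated in these sources. The arrays had near-equal quartiles, so the values were taken as normalized by the authors and converted to log2 with no offset. The precision is limited by having 2 arrays a group.

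Names came from the platform's annotation, which can be old, with symbols updated by Entrez number through RefSeq (GRCh38.p14). Of 22215 probe sets, 19724 name 1 gene (19707 with a current symbol), 568 name several and 1923 none. Each gene was represented by its brightest probe set. The 2 groups were compared in limma 3.58.1 (R 4.3.3; lmFit, eBayes and Benjamini-Hochberg adjustment) over all genes and, separately, over all probe sets that name 1 gene. A gene is called at an adjusted p under 0.05. Intervals are 95% and come from the same fits. Moderation gave 7.41 degrees of freedom, of which 5.41 came from the prior.

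The family, the gene lists and the tests were chosen with earlier results of these data known. Named genes are the family, ITIH5 and ITIH6, every called gene and the 3 smallest p of each related list, the 5 genes nearest to the member with the largest difference, and HABP2, TNFAIP6, HNF4A and CEBPD; 1 other gene the rule names is not reported here. PTX3, HAS2, XYLT1, XYLT2 and KLKB1 were named for their role, after their values were seen, as were ALB, AFP, LUM, TAT, CYP2E1, DCN, COL1A1, PTPRC, KIN, STIMATE, SPCS1 and GLT8D1. Neighbours are the 5 nearest measured protein-coding genes on each side of each member. The fit was tested on simulated data with 12165 genes in 20 runs of 200 changed genes, where 4.5% of calls were false. Alternatives covered scaling, a log offset of 16 or 50, probe set choice, a filter on dim probe sets, variance moderation, each array left out and a replicate block. Figures were made with matplotlib 3.10.9 (Python 3.11.15).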

Additional observations from a re-analysis of the deposited data

How the results depend on the processing

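The family had 0 calls among its genes and 0 among its probe sets under all 12 alternatives run for each, and the smallest adjusted p was 0.0741 (AMBP, with trend and robust moderation in limma). The signs of ITIH1, ITIH2, ITIH4 and AMBP did not change in these fits. The count of 0 family genes at an unadjusted p under 0.05 did depend on the setting. In limma, 1 of the 5 passed under quantile normalization, with an offset of 16 or 50 and with the mean of all probe sets. With trend and robust moderation 2 of the 5 passed. Over all 12165 genes, 2135 to 2352 passed in these 5 settings. Leaving out 1 array at a time gave -0.28 to 0.16 for ITIH3, -0.11 to 0.041 for the ITIH4 probe set 206287_s_at and -0.090 to 0.27 for the AMBP probe set 214425_at. With 1 array left out, the lone array is assumed to vary like the other group. The count of all called genes (149) was 63 under quantile normalization, 0 with an offset of 50 (limma, 2352 genes at an unadjusted p under 0.05), 632 with trend and robust moderation and 0 to 523 with 1 array left out, where it was 345 without untreated replicate 1, 523 without untreated replicate 2 and 0 without either TGF-beta array (1326 and 1563 genes at an unadjusted p under 0.05). The count of called probe sets (175) was 83, 0 and 690 in the first 3 of these settings, 74 with an offset of 16, 84 without dim probe sets and 0 to 480 with 1 array left out. The 7 calls of the related lists became 2, 0 and 16 in those 3 settings and 0 to 13 with 1 array left out. Same-numbered arrays did not deviate together (correlation 0.01 over genes), so the numbers were not taken to pair the arrays; with a replicate block 1229 genes, 1107 probe sets and 23 related genes were called, and none of the family. With the block the SE was nearly the same for all family genes and called list genes. It was 0.139 for HABP2 and 0.135 for TTR, against 0.183 and 0.109 without the block. The cause of these shifts in the counts was not tested.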

Other observations

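The measured neighbours of the family on its 3 chromosomes numbered 30. PFKFB3, which makes an activator of glycolysis and is the third measured gene beyond ITIH2 on chromosome 10, rose, with intensities of 279 and 246 after TGF-beta, against 124 and 150 in untreated cells (log2 fold change 0.94 ± 0.13, SE, adjusted p = 0.0330 in limma). None of the other 29 passed, where 1.22% of all genes did, and their list median with PFKFB3 included was 0.004. RGS3, which restrains G protein signalling and lies before AMBP on chromosome 9, had 1558 and 1603 after TGF-beta, against 1177 and 1192 in untreated cells, a log2 fold change of 0.42 with an adjusted p of 0.0950. KIN, a DNA-binding protein next to ITIH2, had a value of -0.45 and ITIH5, on its other side, one of 0.04. Around ITIH1, ITIH3 and ITIH4 on chromosome 3, STIMATE, a regulator of calcium entry, had 0.37, SPCS1, a signal peptidase subunit, had -0.11 and GLT8D1 had -0.13.

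Of the leukocyte markers, CD14, an endotoxin co-receptor that hepatocytes also make, rose to 146 and 157 after TGF-beta, against 75.6 and 75.4 in untreated cells (adjusted p = 0.0167 in limma). With a log offset of 50 this call was lost. The common leukocyte antigen PTPRC had a log2 fold change of 0.01 (adjusted p = 0.985) and lay near the lower quartile of the arrays. CD3D had a value of -0.61 with an adjusted p of 0.109.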
